A study of Homo sapiens with 21 samples.

Results

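NLGN1, ERBB4, PRKG1, AUTS2, RYR2, ADGRV1, ADAMTS20, ADGRL2, DYNC2H1 and DNAH14 are 10 long human genes whose transcripts were crosslinked to the RNA-binding proteins FUBP3, KHSRP and CPSF1 almost entirely within introns. They were picked from these data by name, as genes with clusters in the fluorescent libraries of the 3 proteins, and every cluster deposited under one of the 10 names was taken. They are 10 of 15551 named genes and hold 7027 of 740716 clusters in those 7 libraries. Intron share, read level and balance between the proteins were known when the genes were chosen, so these values describe the genes and are not tests. Only some of the 10 genes are known chiefly from neurons. The cells were Flp-In T-REx 293, an established kidney-derived line, so the genes are called long genes here.

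The series compared a PAR-CLIP protocol that uses a fluorescent adapter (fPAR-CLIP) with the older radiolabelled one. Cluster files were given for 17 of its 21 samples, namely 4 libraries each of FUBP3 and KHSRP, 1 of CPSF1, 6 of AGO2 and 2 of U2AF1. Each cell line carried a stably integrated transgene for the FLAG-HA-tagged protein, which was captured with anti-FLAG beads after crosslinking with UVA or UVB light. Fluorescent FUBP3 and KHSRP libraries were made at 0.15, 0.5 and 1.5 U/µl of RNase I, and the CPSF1 library at 0.5 U/µl. FUBP3 and KHSRP each also had 1 radiolabelled library cut with RNase T1 at 0.5 U/µl. AGO2 had fluorescent libraries at 0.15 and 1.5 U/µl of RNase I and 4 radiolabelled RNase T1 libraries, with or without a gel step. U2AF1 had libraries at 1.5 and 15 U/ml of RNase A and T1. Cells were grown in 100 µM 4-thiouridine for 8 to 12 h, or, for U2AF1, in 250 µM for 2 h. FUBP3, KHSRP, CPSF1 and U2AF1 each had a single library per condition. The spread between replicates is therefore unknown for them, and no test was made.

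PAR-CLIP marks binding sites through 4-thiouridine, since a crosslinked base of it gives a T-to-C change in the reads. A cluster is a group of overlapping reads that carries such changes. FUBP3 and KHSRP are relatives from one family of KH-domain proteins, which bind single-stranded U-rich RNA, and KHSRP acts in mRNA decay, splicing and microRNA processing. CPSF1 is a subunit of the complex that reads the AAUAAA signal before cleavage and polyadenylation. Introns make up nearly all of the primary transcript of genes this long and are removed in the nucleus, so intronic reads come from RNA that was not yet spliced or from excised introns. KHSRP cells were lysed in RIPA buffer with sonication, whereas the labels do not name the buffer of FUBP3 or CPSF1. The protein and the lysis therefore cannot be told apart in any comparison of libraries.

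The reads in clusters, which stand in for depth, numbered 810326 to 1975646 in the fluorescent FUBP3 libraries, 200210 to 2172248 in the KHSRP libraries and 180426 in the CPSF1 library. KHSRP at 1.5 U/µl was thus the shallowest of the FUBP3 and KHSRP fluorescent libraries. Shares carry Wilson intervals at 95%, which cover counting error only, since reads are not independent molecules. The files list only clusters of at least 5 reads, so a gene without a cluster may still have had reads.

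Sequences at positions that came back in several libraries are shown first, because most positions did not. Overlapping clusters of the 10 genes were merged into 6094 sites, and 5366 of these (88.1%) held a cluster from 1 library only. Clusters in other introns were not merged, so this share and the site counts that follow have no background. Overlaps between pairs of libraries are set beside other introns further below. The merged site chr2:212382174-212382356, in an intron of ERBB4, was the only one with a cluster in all 6 FUBP3 and KHSRP libraries. Its clusters shared no stretch long enough to print, so the sequence below is that of a single cluster, in FUBP3 at 1.5 U/µl, and covers a part of the site. Sequences are given 5′ to 3′ as deposited, in hg38 with positions counted from 1, and capitals mark the unit TATA, the unit TGTA, the unit TGTG and the run TTTT.
ERBB4, chr2:212382262-212382289, minus strand: aTGTGTAtgaaTATATGTGTATAgTATA
The cluster holds overlapping UGUG, UGUA and UAUA units, with unmarked bases between some of them. The whole merged site had 7, 9 and 33 reads in FUBP3 at 0.15, 0.5 and 1.5 U/µl, against 55, 30 and 10 reads in KHSRP at the same doses. In KHSRP the reads came as 30, 18 and 5 distinct sequences, and in FUBP3 as 1, 1 and 5.

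Of the sites with a cluster in all 3 FUBP3 libraries, 5 had none in any KHSRP library. The 4 in introns are shown, each by the sequence of a single cluster within its merged site, and the other lay in the 3′ UTR of ADGRL2.
ERBB4, chr2:212494080-212494108, minus strand: tttgttatcagctaTGTGTAatattTGTA
ERBB4, chr2:212500632-212500657, minus strand: gtagcaaggttagatattctaaatat
ADGRL2, chr1:81977465-81977491, plus strand: tattggtagatttcaTTTTagtatgtc
PRKG1, chr10:51160695-51160718, plus strand: tTGTGtttcttccatgaaaagtct
The first ERBB4 site had 11, 8 and 9 reads over the whole merged site in FUBP3 at rising dose, the second 8, 9 and 16, the ADGRL2 site 5, 8 and 5, and the PRKG1 site 5, 19 and 7. Each site was built from 1 to 3 distinct read sequences in a library. The sites in all 3 KHSRP libraries and in no FUBP3 library numbered 6, and all are shown. For the first 4 the stretch shared by every cluster is printed, and for the last 2 the sequence of a single cluster.
ERBB4, chr2:212515546-212515569, minus strand: tagtagtcttaagaatTATATATA
DYNC2H1, chr11:103271079-103271104, plus strand: tatgTTTTaaagTATAatattactaa
DNAH14, chr1:225004293-225004313, plus strand: attagcaaagTATAaggtaag
PRKG1, chr10:51169321-51169344, plus strand: cTTTTaaagTTTTcttgctaagta
ADGRL2, chr1:81964175-81964204, plus strand: aaatttctgtttaatgaaattaaagtttga
PRKG1, chr10:51177979-51178005, plus strand: cTATAttgctttaaaatgcaagtttaa
The ERBB4 site had 30, 9 and 5 reads over the whole merged site in KHSRP at rising dose, the DYNC2H1 site 14, 15 and 6, and the DNAH14 site 9, 12 and 9. The first PRKG1 site had 15, 21 and 5, the ADGRL2 site 43, 15 and 12, and the second PRKG1 site 7, 14 and 5. TATA stands in 4 of the 6 KHSRP sequences and in none of the 4 FUBP3 ones, but these cover parts of few sites.

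Some CPSF1 clusters held AATAAA, the DNA form of the polyadenylation signal. The most read intronic examples of 4 genes are shown, with capitals on AATAAA.
AUTS2, chr7:69924370-69924395, plus strand: atgAATAAAaattggtctgtagtttt
ERBB4, chr2:212280664-212280687, minus strand: tcagtgtgAATAAAgttatctaac
DNAH14, chr1:224980980-224981009, plus strand: aaagtataattaaaaAATAAAATAAAtagc
PRKG1, chr10:51071843-51071872, plus strand: ccctaAATAAActctaaaacatcaatgaaa
They had 17, 12, 10 and 10 reads, built from 4, 2, 2 and 1 distinct sequences. T-to-C changes were carried by 29.4%, 58.3%, 60% and 100% of these reads. Over all intronic CPSF1 clusters of the genes the share was 96.1%. The AUTS2 site lay 27.3% of the way along the gene, the ERBB4 site 22.2%, the DNAH14 site 10.9% and the PRKG1 site 6.19%, far from the annotated 3′ ends.

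The authors' region labels put 6866 of the 7027 clusters in introns (97.7%, interval 97.3 to 98.0%), against 69.5% of the 733689 other clusters in the same libraries. The rest were 76 clusters in 3′ UTRs, 44 in coding exons, 20 across an intron-to-exon border, 13 across an exon-to-intron border, 7 in 5′ UTRs and 1 at a stop codon. PRKG1 and ERBB4 had the highest intron shares, 99.5% of 1081 clusters and 99.4% of 1503. ADGRL2 had the lowest, 94.2% of 499 clusters, with 19 clusters in its 3′ UTR. Another 36 of the 3′ UTR clusters belonged to AUTS2. The share ranged between 95.7% and 98.8% in the other 7 genes.

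The genes differ in length by several fold. RefSeq on the GRCh38.p14 assembly gives PRKG1 at chr10:50990888-52298350 on the plus strand (1307 kb) and ADAMTS20 at chr12:43352763-43552203 on the minus strand (199 kb). Between these lie AUTS2 (chr7:69598475-70793506, plus, 1195 kb), ERBB4 (chr2:211375717-212538802, minus, 1163 kb), NLGN1 (chr3:173395952-174294372, plus, 898 kb) and RYR2 (chr1:237042184-237833988, plus, 792 kb). The others are ADGRL2 (chr1:81306132-81993932, plus, 688 kb), ADGRV1 (chr5:90558797-91164437, plus, 606 kb), DNAH14 (chr1:224929654-225399286, plus, 470 kb) and DYNC2H1 (chr11:103109426-103479863, plus, 370 kb). Within these spans 7032 clusters lay on the strand of the gene and 52 on the other strand. Of those 52, 31 carried the name CSTF2T, a gene that lies inside PRKG1 on the opposite strand.

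Reads on genes of neuronal contact and reception are described first. NLGN1 encodes a postsynaptic adhesion protein that binds neurexins. It took 0.0376%, 0.0364% and 0.0466% of cluster reads in FUBP3 at 0.15, 0.5 and 1.5 U/µl, against 0.0174%, 0.0188% and 0.0250% in KHSRP and 0.0127% in CPSF1. All 3 FUBP3 values lay above all 3 KHSRP values. ADGRL2, a latrophilin of the adhesion G protein-coupled receptors, took 0.0432%, 0.0543% and 0.0473% in FUBP3, against 0.0660%, 0.0797% and 0.0609% in KHSRP, and 0.0327% in CPSF1. Here the order was turned, and every KHSRP value was above every FUBP3 value. ERBB4, a receptor tyrosine kinase for neuregulins, was the most read of the 10 genes in every KHSRP library, with 0.196%, 0.175% and 0.190%. In FUBP3 it took 0.154%, 0.164% and 0.163%, and in CPSF1 0.0859%. At 0.5 U/µl the intervals of ERBB4 overlapped, 0.159 to 0.170% in FUBP3 against 0.167 to 0.184% in KHSRP. ADGRV1, a very large adhesion receptor of hair cells and photoreceptors, took 0.0432%, 0.0357% and 0.0370% in FUBP3, against 0.0750%, 0.0695% and 0.0714% in KHSRP. Its CPSF1 value of 0.0488% lay between the ranges of the other proteins.

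Among the signalling genes, PRKG1 encodes the cyclic GMP-dependent protein kinase of smooth muscle and neurons. The ranges of its shares overlapped, with 0.116%, 0.118% and 0.112% in FUBP3 against 0.0945%, 0.100% and 0.119% in KHSRP, with 0.0637% in CPSF1. At 1.5 U/µl the intervals overlapped, 0.105 to 0.120% in FUBP3 and 0.105 to 0.136% in KHSRP. RYR2 encodes the calcium release channel of heart muscle, which neurons also express. It took 0.0221%, 0.0280% and 0.0317% in FUBP3, against 0.0384%, 0.0332% and 0.0165% in KHSRP, and 0.0360% in CPSF1. Its KHSRP value at 1.5 U/µl rests on 33 reads in 6 clusters. AUTS2, a nuclear regulator of neural development that works with a Polycomb complex, took 0.169%, 0.143% and 0.193% in FUBP3, against 0.0794%, 0.0764% and 0.112% in KHSRP, and 0.136% in CPSF1. The FUBP3 values of AUTS2 were all above its KHSRP values, and it was the most read of the 10 genes in CPSF1.

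The remaining genes encode motor proteins and a protease. DYNC2H1, the heavy chain of the dynein that carries cargo back along cilia, took 0.0395%, 0.0353% and 0.0396% in FUBP3, against 0.112%, 0.131% and 0.0779% in KHSRP. CPSF1 had 0.0166%, the lowest value of DYNC2H1 in the 7 libraries. DNAH14, of the family of axonemal dynein heavy chains, took 0.0723%, 0.0737% and 0.0744% in FUBP3, against 0.144%, 0.138% and 0.0514% in KHSRP, and 0.0172% in CPSF1. The KHSRP value at 1.5 U/µl stood apart from the other KHSRP values, with an interval of 0.0424 to 0.0624% from 103 reads. ADAMTS20, a secreted metalloprotease of the extracellular matrix, had the fewest reads. It took 0.0102%, 0.00936% and 0.0147% in FUBP3, against 0.0235%, 0.0241% and 0.0290% in KHSRP, and 0.00942% in CPSF1. Over the 10 genes and 7 libraries the interval reached from 3.00% of the value on either side (ERBB4 in KHSRP at 0.15 U/µl) to 48.9% (ADAMTS20 in CPSF1, 17 reads).

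**Figure D1:**
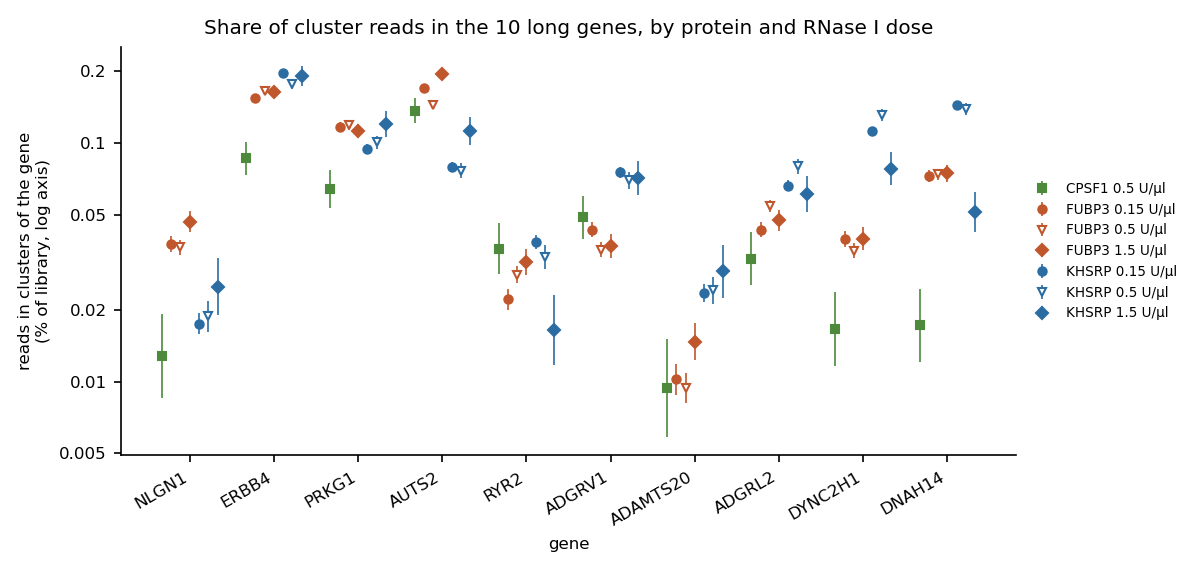
Share of all cluster reads that each of the 10 genes took, in % on a log axis, in CPSF1 (green), FUBP3 (orange) and KHSRP (blue), with symbols for the RNase I dose. Points are single libraries and bars are Wilson intervals at 95%. AUTS2 and NLGN1 sit higher in FUBP3 than in KHSRP, and DYNC2H1, ADGRV1 and ADAMTS20 sit lower.

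The balance between FUBP3 and KHSRP was expressed as the log2 ratio of the shares at each matched dose. A direction was counted when it held at all 3 doses in a gene with 50 or more reads in all 6 libraries, a minimum that 9 of the 10 genes met. Of these, NLGN1 and AUTS2 were higher in FUBP3 at all doses, 2 of 9, against a background of 13.6% of 789 genes. ERBB4, ADGRV1, ADAMTS20, ADGRL2 and DYNC2H1 were lower in FUBP3 at all doses, 5 of 9, against a background of 60.1%. Nothing can be read from either count, since the genes were chosen with this balance known. NLGN1 had ratios of 1.11, 0.96 and 0.90 at rising dose, and AUTS2 1.09, 0.91 and 0.79. At the other end DYNC2H1 had -1.50, -1.89 and -0.98, ADAMTS20 -1.20, -1.36 and -0.98, and ADGRV1 -0.80, -0.96 and -0.95. At 0.5 U/µl the share of DYNC2H1 was 3.70-fold lower in FUBP3 than in KHSRP.

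ADGRL2 and ERBB4 were nearer to equal, with ratios of -0.61, -0.56 and -0.37 and of -0.34, -0.10 and -0.23. PRKG1 and DNAH14 changed sign with dose. PRKG1 had 0.30, 0.23 and -0.090, and DNAH14 -0.99, -0.91 and 0.53. RYR2 did so too, with -0.80, -0.25 and 0.94, but missed the minimum. Without the 1.5 U/µl libraries, an alternative chosen after the data were seen, all 10 genes met the minimum. NLGN1, PRKG1 and AUTS2 were then higher in FUBP3, 3 of 10, and the other 7 lower, against backgrounds of 36.0% and 45.4% of 2982 genes.

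The sign of a ratio near 0 depends on the total that reads are set over, and KHSRP had more of its reads in introns than FUBP3. Intronic clusters held 74.2%, 73.5% and 69.0% of KHSRP reads at rising dose, against 47.8%, 47.6% and 53.7% of FUBP3 reads. Setting the reads over intronic reads moved every ratio up by 0.63, 0.63 and 0.36, and median-of-ratios size factors moved it up by 0.70, 0.63 and 0.57. Under the intronic total 29.4% of genes were higher and 38.3% lower in FUBP3, and under size factors 34.0% and 33.6%. NLGN1 and AUTS2 stayed higher in FUBP3 and ADGRV1, ADAMTS20 and DYNC2H1 stayed lower in it under all 3 totals. NLGN1 and AUTS2 did not keep this with clusters of at least 3 distinct read sequences, which few FUBP3 clusters had. NLGN1 was then lower in FUBP3 at all doses, with 8, 13 and 0 reads in FUBP3 against 125, 15 and 11 in KHSRP. AUTS2 then had ratios of -0.18, -0.07 and 2.73, the last from 125 reads in FUBP3 against 6 in KHSRP. ERBB4 and PRKG1 were higher in FUBP3 at all doses under both other totals. ADGRL2 lay between -0.01 and 0.07 under the intronic total and between 0.07 and 0.20 under size factors.

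Genes of like length gave a further comparison. The other 217 genes that met the minimum and are at least as long as ADAMTS20 had median ratios of 0.07, 0.04 and -0.14 at rising dose, and all 789 genes had -0.70, -0.65 and -0.57. The medians of the 9 genes were -0.61, -0.56 and -0.23. Among the other long genes 25.3% were higher in FUBP3 at all doses and 30.4% lower.

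**Figure D2:**
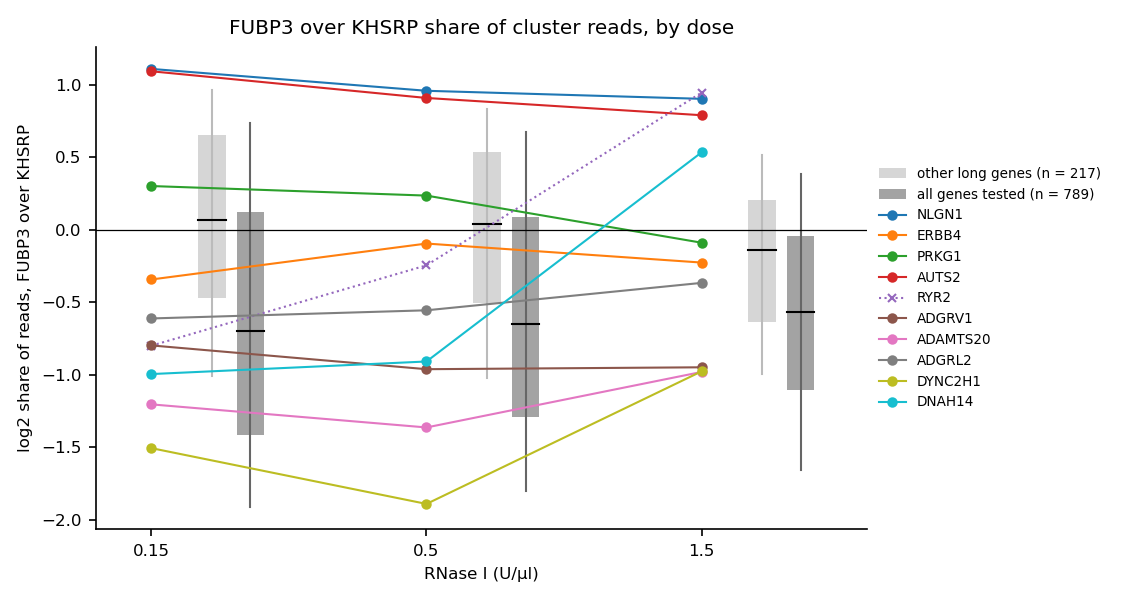
Log2 ratio of the share of cluster reads, FUBP3 over KHSRP, against RNase I dose in U/µl for the 10 genes (lines, with RYR2 dotted because it had 33 reads in KHSRP at 1.5 U/µl). Boxes show the quartiles and median of 217 other long genes (light) and of all 789 genes (dark), and thin lines run from the 10th to the 90th percentile. NLGN1 and AUTS2 lie at 0.79 to 1.11, and DYNC2H1 at -1.89 to -0.98.

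Against CPSF1, which shares only the 0.5 U/µl dose, none of the 10 genes had, over all cluster reads, a share at least 2-fold higher in CPSF1 than in FUBP3 (background 14.0% of 2247 genes) or than in KHSRP (14.8%). NLGN1, DYNC2H1 and DNAH14 were at least 2-fold lower in CPSF1 than in FUBP3, 3 of 10, against a background of 20.6%. ERBB4, ADAMTS20, ADGRL2, DYNC2H1 and DNAH14 were at least 2-fold lower in CPSF1 than in KHSRP, 5 of 10, against 27.3%. DNAH14 had the widest gaps, with a share 4.29-fold lower in CPSF1 than in FUBP3 and 8.05-fold lower than in KHSRP. DYNC2H1 was 7.87-fold lower than in KHSRP. The CPSF1 values rest on few reads, 31 in 4 clusters of DNAH14, 30 in 3 of DYNC2H1 and 23 in 3 of NLGN1. Clusters under 5 reads are not listed, and the CPSF1 library had the fewest cluster reads of the 3 proteins at this dose. AUTS2 went the other way, 1.78-fold higher in CPSF1 than in KHSRP and about equal to FUBP3 (log2 ratio -0.07). The median log2 ratio of the 10 genes was -0.81 against FUBP3 and -0.84 against KHSRP, and that of all 2247 genes was -0.11 and -0.19. Set over intronic reads, 6 of 10 were lower in CPSF1 than in FUBP3 and 4 of 10 lower than in KHSRP, with backgrounds of 30.5% and 21.2%. Under that total none was 2-fold higher in CPSF1 than in FUBP3 (background 8.32%), while AUTS2 was more than 2-fold higher in CPSF1 than in KHSRP (log2 1.10), 1 of 10 against a background of 20.6%. The intronic total was added here after the data were seen.

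From 0.15 to 1.5 U/µl the FUBP3 shares moved little. None of the 9 genes was 2-fold higher or lower at 1.5 U/µl than at 0.15 U/µl in FUBP3, against backgrounds of 2.28% higher and 1.27% lower among 789 genes. The log2 change in FUBP3 ranged between -0.22 (ADGRV1) and 0.52 (ADAMTS20 and RYR2). In KHSRP, DNAH14 was lower by more than 2-fold (log2 -1.49), 1 of 9, against 6.21% of genes lower and 8.62% higher. RYR2, below the minimum, had -1.22, and DYNC2H1 -0.52. NLGN1 and AUTS2 had 0.52 and 0.50 in KHSRP.

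Cluster density showed how closely the sites lay. At 0.5 U/µl DNAH14 carried 35.8 FUBP3 clusters per 100 kb, ERBB4 33.4 and AUTS2 29.1, while NLGN1 carried 11.4 and RYR2 9.47. In KHSRP at that dose DYNC2H1 led with 33.7 per 100 kb, before DNAH14 with 24.5 and ERBB4 with 16.2, and NLGN1 was lowest with 3.01. Density was lower at higher doses in KHSRP, where the median of the 10 genes was 23.0, 12.5 and 3.34 per 100 kb at 0.15, 0.5 and 1.5 U/µl. The FUBP3 medians were 18.8, 19.9 and 7.93, and the CPSF1 median was 1.08. The 7 libraries fall in the same order by median density and by reads in clusters. Per 100000 clusters of the library the medians lay between 9.92 and 11.6 per 100 kb over the FUBP3 doses, and were 12.9, 13.7 and 12.0 in KHSRP at rising dose and 5.06 in CPSF1. The gap between KHSRP doses was thus nearly gone. The densest gene in CPSF1 was AUTS2, with 2.76 clusters per 100 kb.

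**Figure D3:**
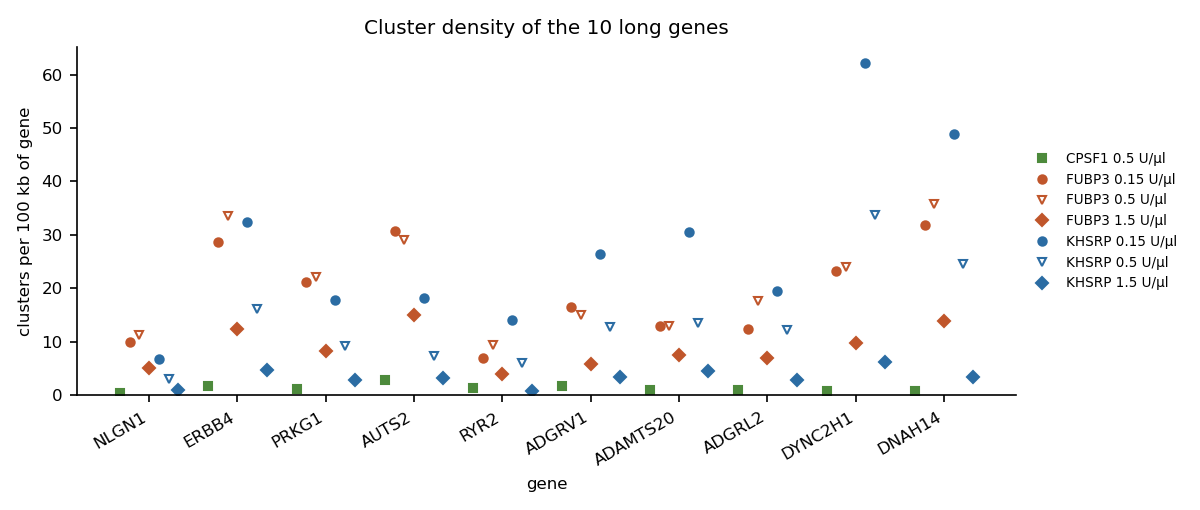
Clusters per 100 kb of RefSeq gene span for each of the 10 genes in CPSF1 (green), FUBP3 (orange) and KHSRP (blue), with symbols for the RNase I dose. Points are single libraries without error bars. DYNC2H1 and DNAH14 reach 62.1 and 49.0 in KHSRP at 0.15 U/µl.

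Spacing was uneven within genes. In FUBP3 at 0.5 U/µl the median gap between neighbouring clusters was 0.577 kb in DNAH14 and 0.722 kb in ERBB4, although the largest gaps were 48.1 kb and 117 kb. In ERBB4 56.4% of the gaps were under 1 kb. NLGN1 and ADAMTS20 had median gaps of 4.16 kb and 5.60 kb in the same library, with 19.8% and 16% of gaps under 1 kb. The DYNC2H1 median was 2.21 kb in FUBP3 and 0.783 kb in KHSRP at 0.5 U/µl. CPSF1 clusters stood far apart, with median gaps between 21.1 kb in ADGRL2 and 178 kb in NLGN1.

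Most of the genes held their clusters toward the 5′ end. Each gene was cut into 10 equal parts, and clusters of the 3 RNase I doses were summed. The first 5 parts of ERBB4 held 88.4% of 865 FUBP3 clusters (interval 86.1 to 90.4%) and 93.4% of 618 KHSRP clusters (91.1 to 95.1%). Its first part alone had 315 FUBP3 and 274 KHSRP clusters, against 13 and 2 in the last. DNAH14 was similar, with 87.7% in FUBP3 and 90.3% in KHSRP in the first 5 parts, and PRKG1 had 80.6% and 86.2%. AUTS2 had 79.4% and 78.1%.

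AUTS2 also had a smaller gathering at its 3′ end. Its part 9 held 12 FUBP3 and 4 KHSRP clusters, and its last part 70 and 32. The part 1 counts of AUTS2 were 257 and 85. NLGN1 sloped more gently, with 66.7% of 237 FUBP3 clusters and 60% of 95 KHSRP clusters in the first 5 parts. With clusters of at least 10 reads only, an alternative added later, the KHSRP value of NLGN1 was 33.3%. Few clusters were left, and the interval of 9.68 to 70.0% includes the 60% of all clusters.

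FUBP3 and KHSRP differed most along ADGRV1 and DYNC2H1. The first 5 parts of ADGRV1 held 77.0% of its FUBP3 clusters (71.1 to 82%) and 91.9% of its KHSRP clusters (87.9 to 94.6%). In DYNC2H1 they held 67.3% (60.7 to 73.3%) in FUBP3 and 87.3% (83.6 to 90.3%) in KHSRP. These intervals do not overlap, nor do those of ERBB4 given above, but clusters of 1 gene share their source and 1 library stood behind each dose. With clusters of at least 10 reads only, the ADGRV1 intervals did overlap, 76.5 to 95.2% in FUBP3 and 93.3 to 99.8% in KHSRP. Those of DYNC2H1 did not, at 62.8 to 86.4% and 89.3 to 96.9%. KHSRP clusters of DYNC2H1 gathered in part 1, with 85, and in part 4, with 84, whereas FUBP3 had 27 and 40 there.

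Other genes had no 5′ gathering. RYR2 held 42.6% of FUBP3 clusters (35.2 to 50.3%) and 35.2% of KHSRP clusters (28.3 to 42.7%) in its first 5 parts. ADAMTS20 held 52.2% and 49.5%, and its KHSRP clusters peaked in part 7, with 38 of 97. FUBP3 had 13 of its 67 clusters in that part of ADAMTS20.

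ADGRL2 was unlike the rest. None of its 254 FUBP3 clusters and 1 of its 238 KHSRP clusters lay in the first 5 parts, and the interval of the FUBP3 share reaches 1.49%. RefSeq lists internal transcript starts of ADGRL2 between chr1:81800376 and chr1:81803273, at 71.9 to 72.3% of the span. All but 1 of its 499 clusters in the 7 libraries lay after the last of them. The first cluster in FUBP3 at 0.15 U/µl began at 81804363, in FUBP3 at 0.5 U/µl at 81804429, and in KHSRP at 0.5 U/µl at 81804206. The exception was a cluster at 81385959 in KHSRP at 1.5 U/µl, where the second cluster began at 81803903. In PRKG1 96 of 1081 clusters lay before the RefSeq start at chr10:51074487, and 45 lay after the one at chr10:52046756, so both sides of each internal start were covered.

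**Figure D4:**
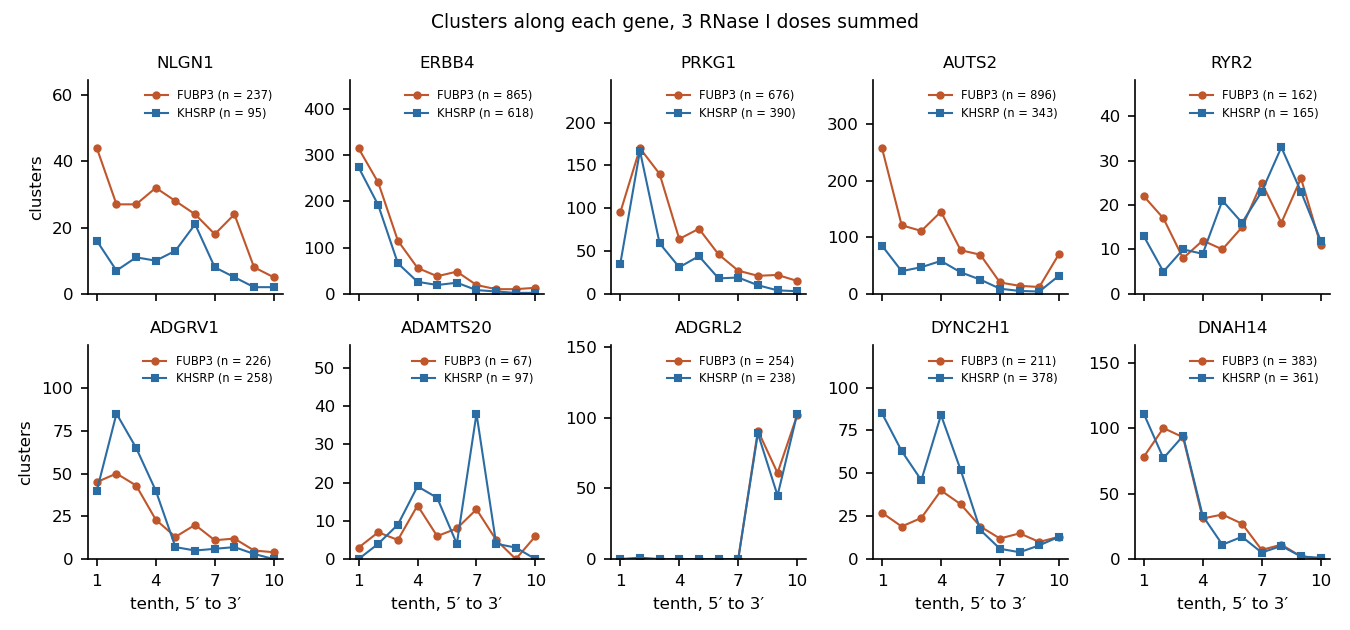
Number of clusters in each of 10 equal parts of the gene span, 5′ to 3′, for the 10 genes, in FUBP3 (orange circles) and KHSRP (blue squares), with the 3 RNase I doses summed and n the total per protein. Counts have no error bars and the vertical scale differs between panels. ERBB4 has 315 and 274 clusters in the first part and 13 and 2 in the last, and ADGRL2 has all but 1 of its clusters in the last 3 parts.

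A 5′ gathering was common in long genes. Among other genes at least as long as ADAMTS20 with at least 20 clusters in a library, the median share in the first 5 parts was 62.2 to 70.4% over the 6 FUBP3 and KHSRP libraries. Between 72.6% and 80.9% of those genes had more than 50% of their clusters there. At 0.5 U/µl that was true of 8 of the 10 genes in FUBP3 and 7 of 10 in KHSRP.

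The RNase T1 libraries were not used to choose the genes and held fewer clusters, 92 in FUBP3 and 175 in KHSRP by position within the gene spans. All 14 FUBP3 and all 26 KHSRP clusters of ERBB4 lay in its first 5 parts, as did all 9 and all 26 of ADGRV1. In DNAH14 the first 5 parts held 31 of 33 FUBP3 and 50 of 52 KHSRP clusters. None of the 9 FUBP3 and 8 KHSRP clusters of ADGRL2 lay there. RYR2 had 36 KHSRP clusters, 2 of them in the first 5 parts, against 1 cluster in FUBP3, in part 4. PRKG1 had 7 of 10 FUBP3 and all 6 KHSRP clusters there, and AUTS2 7 of 11 and 7 of 9. DYNC2H1 had 6 of 9 KHSRP clusters in the first 5 parts, and none in part 1. The interval of that share, 35.4 to 87.9%, includes the fluorescent value of 87.3%. In FUBP3 DYNC2H1 had 2 clusters. ADAMTS20 had 3 FUBP3 clusters and 1 KHSRP cluster, which lay in part 4. NLGN1 had no FUBP3 cluster and 2 KHSRP clusters.

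Levels in the RNase T1 libraries went partly with the fluorescent ones. DYNC2H1 took 0.00556% of FUBP3 reads against 0.0453% of KHSRP reads, and DNAH14 0.126% against 0.335%. Both were lower in FUBP3, as at 0.15 and 0.5 U/µl of RNase I. RYR2 took 0.00334% against 0.230%, from 6 and 290 reads. AUTS2 took 0.0484% in FUBP3 and 0.0405% in KHSRP, with intervals of 0.0392 to 0.0597% and 0.0308 to 0.0532% that overlap. ADAMTS20 had 17 of 179853 reads in FUBP3 and 5 of 125960 in KHSRP, so its share was higher in FUBP3, unlike in the fluorescent libraries. NLGN1, with clusters in KHSRP only, also went against its fluorescent direction. Both rest on few reads or clusters. Enzyme, labelling protocol and library depth all differ between these libraries and the fluorescent ones and cannot be told apart.

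The number of distinct read sequences per cluster differed between the proteins. In FUBP3 77.8%, 78.9% and 84.9% of the clusters of the 10 genes at rising dose were built from 1 distinct sequence, and in CPSF1 84.1%. In KHSRP the shares were 16.3%, 29.8% and 76.1%. Clusters with 6 or more distinct sequences made up 21.9%, 11.4% and 0.855% in KHSRP, against 0.382%, 0.294% and 0.141% in FUBP3. The RNase T1 libraries had 8.70% single-sequence clusters in FUBP3 and 3.43% in KHSRP. Read numbers per cluster did not follow this split, with a median of 7, 7 and 8 reads in intronic clusters of the genes in FUBP3 and 8, 7 and 6 in KHSRP.

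Genes differed within KHSRP in this measure. At 0.15 U/µl DNAH14 averaged 6.26 distinct sequences per cluster and ERBB4 5.01, against 2.03 in NLGN1 and 2.71 in RYR2. In FUBP3 at that dose the averages lay between 1.12 in ADAMTS20 and 1.51 in ADGRL2. Other intronic clusters showed the same contrast, with 5.07, 3.54 and 1.64 distinct sequences in KHSRP at rising dose, and 4.33, 3.01 and 1.39 in introns of the 10 genes. The FUBP3 values were 1.27, 1.26 and 1.17 in the genes and 1.35, 1.32 and 1.20 in other introns. These are means, and other introns include clusters of up to 14781 reads in FUBP3 and 4183 in KHSRP. By the share of single-sequence clusters the genes and other introns were close in FUBP3, with 78.6%, 79.4% and 85.6% in the genes against 79.2%, 79.9% and 85.6% in other introns. In KHSRP these shares were 16.0%, 29.8% and 76.2% in the genes against 15.8%, 28.5% and 67.3%.

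**Figure D5:**
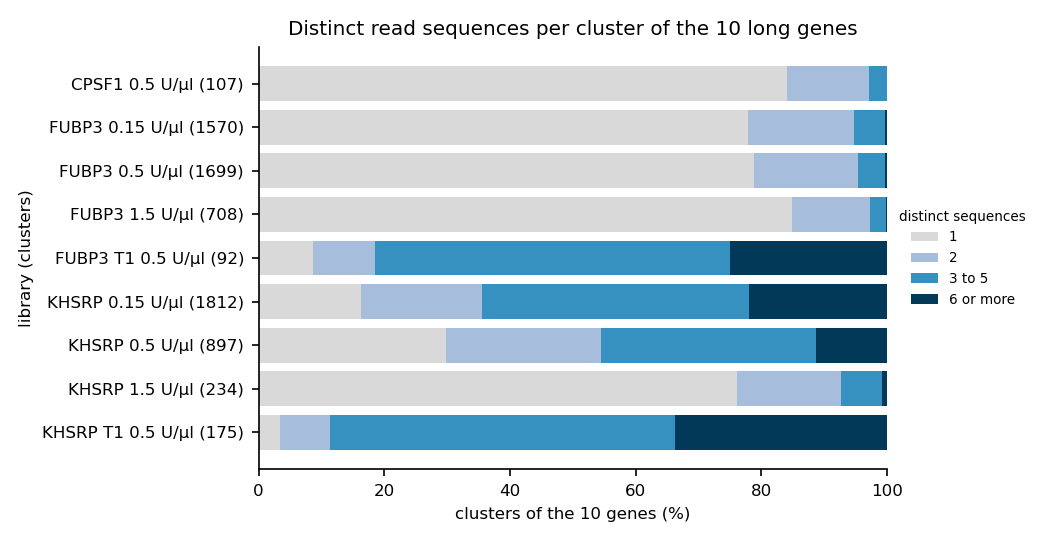
Percentage of the clusters of the 10 genes that held 1, 2, 3 to 5, or 6 or more distinct read sequences, by library, with the number of clusters in brackets. Bars have no error bars. Single-sequence clusters make up 78.9% in FUBP3 and 29.8% in KHSRP at 0.5 U/µl.

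The deepest single clusters held a small part of each gene's reads. In DNAH14 the most read cluster had 101 reads of 48 distinct sequences in KHSRP at 0.15 U/µl, at chr1:225003094-225003261 in an intron. In ERBB4 it had 71 reads and 30 sequences, at chr2:212514384-212514505, and in ADGRV1 65 reads and 34 sequences, at chr5:90630457-90630601. The top clusters of AUTS2 and ADGRL2 were FUBP3 clusters in 3′ UTRs. AUTS2 had 78 reads at chr7:70792666-70792754 at 0.5 U/µl, and ADGRL2 had 56 reads at chr1:81992249-81992341 at 0.15 U/µl, which was 7.70% of its reads in that library. ADGRL2 had no KHSRP cluster at that 3′ UTR site at any dose. For the other genes the top cluster held between 1.67% and 5.01% of the reads of the gene in its library, and leaving out the top cluster of each gene changed neither count of directions.

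Intronic clusters of the genes were short, with a median length of 30 nt in 5 of the 7 libraries and 29 nt in FUBP3 at 1.5 U/µl and in CPSF1. T-to-C changes were carried by 95.1%, 94.6% and 98.1% of their FUBP3 reads at rising dose, against 76.6%, 82.9% and 93.1% of their KHSRP reads, and by 96.1% of their CPSF1 reads. Other intronic clusters had 93.8%, 93.6% and 96.7% in FUBP3 and 75.1%, 80.6% and 93.0% in KHSRP. Within KHSRP at 0.15 U/µl DNAH14 was lowest, with 69.1%, and NLGN1 highest, with 93.1%.

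FUBP3 and KHSRP clusters seldom fell on the same bases, and FUBP3 clusters at 0.5 and 0.15 U/µl met about as seldom (6.18%, given below). At least 1 nt on the same strand was shared with KHSRP by 7.20%, 4.41% and 1.69% of FUBP3 clusters of the genes at rising dose, against 10.6%, 5.88% and 1.72% of other intronic FUBP3 clusters. The intervals at 0.15 U/µl, 6.02 to 8.58%, and at 0.5 U/µl lie below the values of other introns, and the one at 1.5 U/µl includes it. Of the KHSRP clusters of the genes 6.46%, 8.47% and 4.70% were shared with FUBP3, against 7.54%, 9.39% and 4.24% elsewhere in introns. The number of clusters that could be met also changed with dose. The whole KHSRP libraries held 178339, 91188 and 27711 clusters at rising dose, and the FUBP3 libraries 161821, 180358 and 79916. How far these numbers set the overlap was not tested.

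Overlap between doses of 1 protein was compared in the same way. Of the FUBP3 clusters at 0.5 U/µl, 6.18% met a FUBP3 cluster at 0.15 U/µl in the genes, and 5.80% did so in other introns. In KHSRP the same comparison gave 23.4% in the genes and 26.6% in other introns. Of the 107 CPSF1 clusters, 6 met a FUBP3 cluster and 4 a KHSRP cluster at 0.5 U/µl. Over all doses, 95 of the 107 sites of CPSF1 met none, a count that was not made for other introns. Of the RNase T1 clusters, 12 of 92 in FUBP3 (13.0%) and 25 of 175 in KHSRP (14.3%) met a fluorescent cluster of the same protein at 0.5 U/µl.

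Sequence was not used to choose the genes. On the sequence of each cluster, read on the strand of the gene, 7 motifs were searched. These were the unit TATA, the unit TGTA, the run TTTT, the unit TGTG, the signal AATAAA, the unit AGGG and the run CCCC. A match to TATA can overlap a match to TGTA. TATA stood in 19.6%, 21.7% and 17.0% of the intronic FUBP3 clusters of the genes at rising dose, against 31.0%, 33.4% and 26.0% of their KHSRP clusters and 8.82% of their CPSF1 clusters. Other intronic clusters had 18.6%, 19.1% and 16.3% in FUBP3, 27.2%, 28.8% and 22.1% in KHSRP and 10.6% in CPSF1. The interval of the genes lay above the value of other introns in FUBP3 at 0.5 U/µl (19.8 to 23.8%) and in KHSRP at 0.15 and 0.5 U/µl (28.8 to 33.1% and 30.3 to 36.6%).

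TTTT leaned toward FUBP3, with 40.3%, 41.0% and 38.6% of FUBP3 clusters of the genes against 33.5%, 33.9% and 29.4% of KHSRP clusters. Other introns were within the intervals of these values, at 39.7%, 40.6% and 38.8% in FUBP3 and 34.6%, 34.7% and 28.6% in KHSRP. TGTA was in 25.2%, 26.7% and 23.1% of FUBP3 clusters and 34.4%, 37.4% and 27.7% of KHSRP clusters of the genes. Other introns were close, at 26.2%, 26.4% and 25.1% in FUBP3 and 34.2%, 34.5% and 27.0% in KHSRP. TGTG was in 23.6%, 27.0% and 25% of FUBP3 and 23.4%, 18.8% and 15.2% of KHSRP clusters. The bases under intronic clusters of the genes were 40.1% T and 26.6% A in FUBP3 and 40.1% T and 30.4% A in KHSRP at 0.5 U/µl. Other intronic clusters had 39.7% T and 25.6% A in FUBP3 and 39.7% T and 28.7% A in KHSRP.

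The TATA share varied between genes. In KHSRP at 0.5 U/µl it was lowest at 18.5% and highest at 39.8%, with a median over the 10 genes of 33.3%. In FUBP3 at that dose it ran from 13.5% to 30.8%, with a median of 22.2%. The most frequent hexamer in the FUBP3 clusters of the genes was TTATTT at every dose, in 7.94%, 7.69% and 7.84%, against 6.32%, 6.31% and 6.18% of other intronic clusters. In KHSRP it was ATGTAT at 0.15 and 0.5 U/µl, in 7.15% and 8.20%, against 5.55% and 5.57%.

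AATAAA was in 21 of 102 intronic CPSF1 clusters of the genes (20.6%, 13.9 to 29.4%), against 14.3% of 14424 other intronic CPSF1 clusters, a value within that interval. In FUBP3 it was in 1.5%, 1.88% and 2.03% of the clusters of the genes and in KHSRP in 3.21%, 2.05% and 0.866%. By gene, AUTS2 had 7 of 32 CPSF1 clusters with it, ERBB4 5 of 20 and PRKG1 5 of 15. RYR2, ADGRV1, ADAMTS20 and DNAH14 had 1 each, and NLGN1, ADGRL2 and DYNC2H1 none of 3, 6 and 3.

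AGO2 and U2AF1 libraries, which the choice of genes did not use, held little of the genes. AGO2 carries microRNAs and binds mostly mature mRNA in the cytoplasm. Its fluorescent libraries had 1 PRKG1 cluster of 5 reads at 0.15 U/µl, and 2 AUTS2 clusters of 11 reads with 1 ADGRL2 cluster of 7 reads at 1.5 U/µl. In the radiolabelled AGO2 libraries, where genes were taken by deposited name, the 10 genes had 70 and 48 clusters without the gel and 9 and 3 with it. ADGRL2 had 13, 11, 4 and 1 of these clusters, of which 4, 1, 0 and 0 were in introns.

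U2AF1 is the splicing factor subunit that binds the AG at 3′ splice sites. It had 15 clusters of the genes at 1.5 U/ml and 4 at 15 U/ml. ADGRV1 led at 1.5 U/ml, with 117 reads in 2 clusters, neither labelled as wholly intronic, and RYR2 had 38 reads at 1.5 U/ml and 36 at 15 U/ml. Together the genes took 0.160% of U2AF1 reads at 1.5 U/ml and 0.0995% at 15 U/ml.

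A list of 60 relatives and partners of the 10 genes was compared in the same way. Of these, 48 had a cluster in the 7 libraries and 1 had 50 reads in each FUBP3 and KHSRP library. That gene was TENM3, a teneurin that binds latrophilins, with 646, 765 and 256 reads in FUBP3 and 590, 255 and 53 in KHSRP. Its log2 ratios of 0.50, 0.46 and 0.26 put it higher in FUBP3 at all doses, whereas the latrophilin ADGRL2 was lower under the same total.

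Genes with the profile most like each of the 9 genes were found by Pearson correlation of the log2 share of reads over the 7 libraries, among 756 genes. These are descriptions over libraries that differ in protein, dose and depth. ERBB4 was closest to GTF2H3 (r = 0.995) and ZCCHC7 (0.983), DYNC2H1 to KIF23 (0.993) and NKTR (0.992), and DNAH14 to ZNF451 (0.993) and WDR43 (0.992). ADGRV1 was closest to UBE3C (0.987) and SMCHD1 (0.981), PRKG1 to LCLAT1 (0.986) and PMAIP1 (0.982), and ADAMTS20 to TTK and NBEA (0.982 each). NLGN1 was closest to HS6ST3 (0.975) and FRMPD4 (0.974), ADGRL2 to AGTPBP1 (0.970) and MAP3K4 (0.968), and AUTS2 to IGF1R (0.955) and SIPA1L1 (0.951).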

How the data were processed

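Each deposited file lists clusters called in a single library, and its values are read counts per cluster and, for T-to-C changes, a fraction of the cluster's reads, per the file headers. The deposited counts are raw. The submitters' processing notes name bcl2fastq 2.20.0, cutadapt 1.15 and hg38, and the aligner, cluster caller and annotation are not given in the sources used here. Samples were grouped by their titles. Clusters were assigned by the deposited gene name, except in the RNase T1 libraries, where RefSeq spans and strands were used because many deposited names there belong to other positions. The 4 radiolabelled AGO2 libraries appear to be on another build, so only their gene names and region labels were used. Reads were summed per gene and set over all reads in clusters, and the total of reads in clusters, 75383 to 2172248 over the libraries used here by position, limits the precision. Gene spans come from RefSeq on GRCh38.p14, and all 10 names matched. FUBP3, KHSRP, CPSF1 and U2AF1 had no replicates, and the AGO2 libraries with and without gel were only counted, so no test was run.

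The genes, the list of relatives and the motifs were chosen with earlier results of these data known. Named were all 10 genes, any relative with 50 reads in each of the 6 FUBP3 and KHSRP libraries, and the 2 genes most like each gene in profile. The ratio calculation was tested on simulated data. Alternatives were other totals, distinct reads or cluster numbers in place of reads, stricter clusters, gene spans in place of names and a stricter overlap. Calculations used pandas 2.3.3, numpy 2.4.6 and scipy 1.17.1 under Python 3.11.15, and plots matplotlib 3.10.9. The 4 samples without a cluster file were not analysed here.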

Additional observations from a re-analysis of the deposited data

Results flagged for a closer look

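PRKG1, RYR2 and DNAH14 changed direction between FUBP3 and KHSRP with RNase I dose. PRKG1 had log2 ratios of FUBP3 over KHSRP of 0.30 at 0.15 U/µl and 0.23 at 0.5 U/µl, and of -0.090 at 1.5 U/µl. RYR2 had -0.80 and -0.25 at the lower doses and 0.94 at 1.5 U/µl. DNAH14 had -0.99 and -0.91 at the lower doses and 0.53 at 1.5 U/µl. With 1 library at each dose, the difference between doses was not tested. Among the fluorescent FUBP3 and KHSRP libraries, KHSRP at 1.5 U/µl had the fewest reads on these genes, 239 on PRKG1, 33 on RYR2 and 103 on DNAH14.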

How the results depend on the processing

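Of 131 values recomputed under alternatives, 53 stayed close to the main value, 70 moved further, up or down, and 8 changed direction. Mean ratios that could not be computed, because a library had 0 reads left on the gene, are not in this tally. The mean of NLGN1 with at least 3 distinct reads is among those left out, although it was lower in FUBP3 at every dose there. Close meant within the main interval for shares and within 1.5 times for counts and densities. For the mean log2 ratio of a gene it meant within the standard deviation of its ratios at the 3 doses. The genes higher in FUBP3 at all doses numbered 2, and 4 over intronic reads, 5 with size factors and 0 with clusters of at least 3 distinct reads. Those lower in FUBP3 numbered 5, and 3, 3 and 8 under the same settings, and NLGN1 was among the 8. The mean log2 ratio of ERBB4 turned to 0.32 over intronic reads and 0.41 with size factors, that of ADGRL2 to 0.029 and 0.12, and that of DNAH14 to 0.083 and 0.17. The PRKG1 mean turned to -1.36 with at least 3 distinct reads. The genes at least 2-fold lower in CPSF1 than in FUBP3 numbered 3, and 6 both over intronic reads and by cluster number, alternatives added after the data were seen. Shares over all genes were not computed with at least 3 distinct reads or by cluster number. The counts under those settings therefore have no background, and no preference of the genes can be read from them. With clusters of at least 10 reads the intron share was 96.0%, density at 0.5 U/µl was 4.96 per 100 kb in FUBP3 and 3.00 in KHSRP, and the TATA share in KHSRP was 43.9%. The first 5 parts of NLGN1 then held 33.3% in KHSRP, with a wide interval of 9.68 to 70.0%. With at least 3 distinct reads the intron share was 96.5%, density 1.01 and 5.31, the TATA share 19.4% in FUBP3 and 40.4% in KHSRP, and the AATAAA share in CPSF1 100%, from 2 clusters. Requiring 50% of each cluster to overlap at 0.5 U/µl gave 2.18% of FUBP3 and 4.12% of KHSRP clusters. The cause of these shifts was not tested, beyond the fewer clusters left by stricter minimums. Taken by deposited name, the RNase T1 libraries held 33 and 86 clusters, not 92 and 175. Density over the span without exons was not run, since no exon table was used here. No paired analysis was possible because FUBP3 and KHSRP have 1 library at each dose and no replicate numbers, and the AGO2 gel groups, which share replicate letters, are given as counts of few clusters with no test.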
